A study of Mus musculus with 14 samples.

Results

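The cells described here are the 352 cells with the highest share of G2/M transcripts among 1410 cultured neural stem cells, isolated from the subventricular zone (SVZ) of adult mouse brain and grown with EGF, a growth factor that keeps such cells dividing. They were chosen from the measured values. For every cell the counts of 16 G2/M genes (Mki67, Top2a, Cdk1, Ccnb1, Ccnb2, Cenpf, Cenpe, Cenpa, Ube2c, Birc5, Tpx2, Nusap1, Hmmr, Aurka, Plk1 and Cdc20) were divided by all counts of that cell, and the 25% of cells with the highest share were taken. They are called G2/M cells below, and the 1058 cells left in the library are the other EGF cells. Within these, the 328 S cells have the highest shares of 23 genes of an S phase score, and 730 remaining cells are high in neither score. All are wildtype cells after 3 days with EGF, and they come from 1 library, so cells are not replicates and no test between conditions was possible. Intervals given in brackets are exact 95% intervals that cover counting error only. A further 3 single-cell libraries of the series are used for comparison: wildtype cells cultured for 3 days with BMP4, a signal under which cultured neural stem cells become quiescent (887 cells), freshly isolated untreated APLP1-/- cells (1879 cells) and freshly isolated untreated wildtype cells (2209 cells), which makes 6385 cells in all. The labels do not say whether cells of several animals or cultures were combined in a culture library.

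A dividing cell copies its DNA in S phase, checks and condenses it in G2, and separates the copies in mitosis (M). Entry into mitosis depends on the kinase CDK1 with cyclin B, and exit depends on the anaphase-promoting complex (APC/C), a ubiquitin ligase that marks cyclin B and securin for destruction with its activators CDC20 and CDH1. Many genes used in these steps are transcribed late in the cycle: the DREAM complex holds them down in resting cells, and B-MYB and FOXM1, bound to the same MuvB core, turn them on in G2. MuvB contacts a short promoter element, the cell cycle genes homology region (CHR), and the CCAAT box bound by NF-Y is often found upstream of it.

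Promoter sequence is given for 10 of the genes that separate the G2/M cells from the rest, chosen for a CHR close to the gene start. Each line is 30 bases of mouse GRCm38.p6 from the RefSeq promoter windows (250 bases before to 50 after the gene start), read 5′ to 3′ on the strand of the gene. Capitals mark a CHR, searched as TTTGAA or TTCGAA on both strands. TTCAAA is TTTGAA read on the opposite strand, and TTCGAA reads the same on both strands and was counted once. The windows of Top2a, Cdk1, Ccnb2 and Kif20b hold further matches, and the one nearest the start is in capitals.
Ccnb2: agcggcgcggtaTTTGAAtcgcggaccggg
Cdk1: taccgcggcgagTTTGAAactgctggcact
Plk1: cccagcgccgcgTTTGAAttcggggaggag
Cenpf: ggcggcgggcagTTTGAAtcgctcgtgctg
Top2a: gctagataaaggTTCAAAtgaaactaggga
Prr11: caaagatttaatTTTGAAattttctttatg
Aspm: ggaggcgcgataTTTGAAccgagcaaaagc
Prc1: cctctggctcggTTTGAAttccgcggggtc
Cdc25b: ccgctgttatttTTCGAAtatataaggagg
Kif20b: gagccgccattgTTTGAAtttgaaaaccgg
The stretches lie at chr9:70421533-70421562 (Ccnb2, minus strand), chr10:69352910-69352939 (Cdk1, minus), chr7:122159453-122159482 (Plk1, plus), chr1:189688067-189688096 (Cenpf, minus), chr11:99024195-99024224 (Top2a, minus), chr11:87108694-87108723 (Prr11, minus), chr1:139454767-139454796 (Aspm, plus), chr7:80294434-80294463 (Prc1, plus), chr2:131186943-131186972 (Cdc25b, plus) and chr19:34922353-34922382 (Kif20b, plus). The capitals begin 23 bases before the start of Top2a, 15 before Cdk1, 5 before Prc1, and 3, 4, 5, 7, 8, 8 and 31 bases after the start of Cenpf, Prr11, Ccnb2, Aspm, Kif20b, Cdc25b and Plk1.

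The share of counts in the 16 genes formed a continuous range with no gap at the limit. Its median was 0.385% in the G2/M cells (lowest 0.243%, highest 1.04%) and 0.0521% in the other EGF cells. The last cell inside the limit had 41 of 16868 counts in the 16 genes, and the first cell outside had 37 of 15225, which are both 0.243%. Within 10% of the limit lay 90 cells, 35 of them inside and 55 outside. The name G2/M cells therefore stands for the upper end of a score and not for a separate cell type. A G2/M cell had counts of 15 of the 16 genes (median), and one of the other EGF cells of 6, and 41 cells had a count of 0 for all 16.

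**Figure D1:**
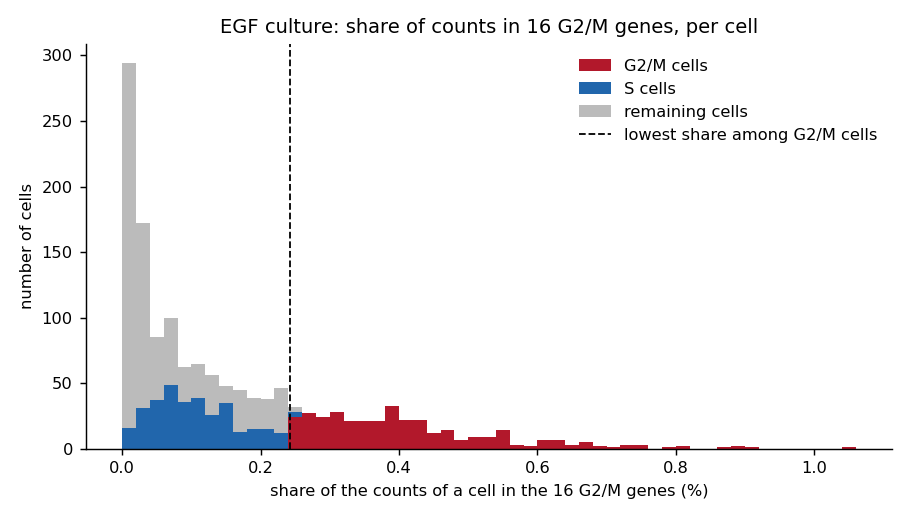
Number of EGF cells (vertical axis) by share of their counts in the 16 G2/M genes, in percent (horizontal axis, bins of 0.02), stacked by group. The dashed line marks the lowest share among the G2/M cells, 0.243%; cells lie on both sides of it without a gap, and most of the remaining cells are near 0.

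G2/M cells also held more RNA counts. They had a median of 26882.5 counts per cell (quartiles 20076 and 33085), against 24727.5 in S cells, 21219.5 in remaining cells and 22358 in the other EGF cells together. The ratio of the medians of G2/M cells and other EGF cells was 1.20, and it was 1.19 when cells were ranked after thinning each to 4500 counts. The median G2/M cell had 5106 detected genes and 5.63% mitochondrial counts, and the median other EGF cell 4426.5 genes and 6.32%. One G2/M cell reached 49.1% mitochondrial counts. All levels below are the summed counts of a group scaled to a total of 1000000 (CPM), which removes the difference in total counts per cell. The EGF library held 33603623 counts, of which 9588319 were in G2/M cells, and it shared 1 cell barcode with the BMP4 library, 5 with the APLP1-/- library and 4 with the fresh wildtype library.

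The 16 genes set the groups, so their levels describe the choice and were not tested. Ccnb1, which encodes cyclin B1, stood at 267 CPM in G2/M cells, 35.8 CPM in S cells and 19.5 CPM in remaining cells, a ratio of 10.7 (9.75 to 11.7) over the other EGF cells. The centromere kinesin Cenpe reached a ratio of 9.06 (8.13 to 10.1), the spindle protein Hmmr 8.46, the mitotic kinase Plk1 7.88, the kinetochore protein Cenpf 7.68 and Nusap1, a microtubule bundling protein, 7.60. Ube2c, the ubiquitin-conjugating enzyme of the APC/C, stood at 7.20, the spindle pole kinase Aurka at 7.15, Cdc20 at 6.60, the Aurora A activator Tpx2 at 5.44 and Cdk1 at 4.59. The lowest ratios were those of the centromeric histone Cenpa (4.07), Mki67 (3.85), the passenger protein Birc5 (3.83), the DNA topoisomerase Top2a (3.71) and cyclin B2, Ccnb2 (2.96). When each gene was measured after ranking the cells on the other 15, Ccnb1 stood at 10.2, Cenpe at 8.50, Cenpa at 3.37 and Top2a at 3.27. Nusap1, Aurka and Cdc20 overlap a neighbouring coding gene (Oip5, Cstf1 and Elovl1), and without knowing whether the counting used strand their counts cannot be told apart from those of the neighbour. The same holds below for genes said to overlap another.

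The 5 genes with ratios below 4.1 differed in where they were high outside the G2/M cells. Top2a stood at 395 CPM in G2/M cells, 217 CPM in S cells and 50.1 CPM in remaining cells. Mki67 had 218 CPM in G2/M cells, 95.6 CPM in S cells and 36.8 CPM in remaining cells, and Birc5 had 407 CPM, 160 CPM and 79.1 CPM in those groups. Cenpa was at 662 CPM in G2/M cells, 101 CPM in S cells and 194 CPM in remaining cells. Ccnb2 likewise had 96.9 CPM in G2/M cells, 25.1 CPM in S cells and 36.6 CPM in remaining cells. So Top2a, Mki67 and Birc5 reached into the S cells, while Cenpa and Ccnb2 were higher in the remaining cells than in the S cells; the other 11 genes were higher in S cells than in remaining cells, Cdc20 by the least (19.0 CPM in S cells and 18.5 CPM in remaining cells).

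**Figure D2:**
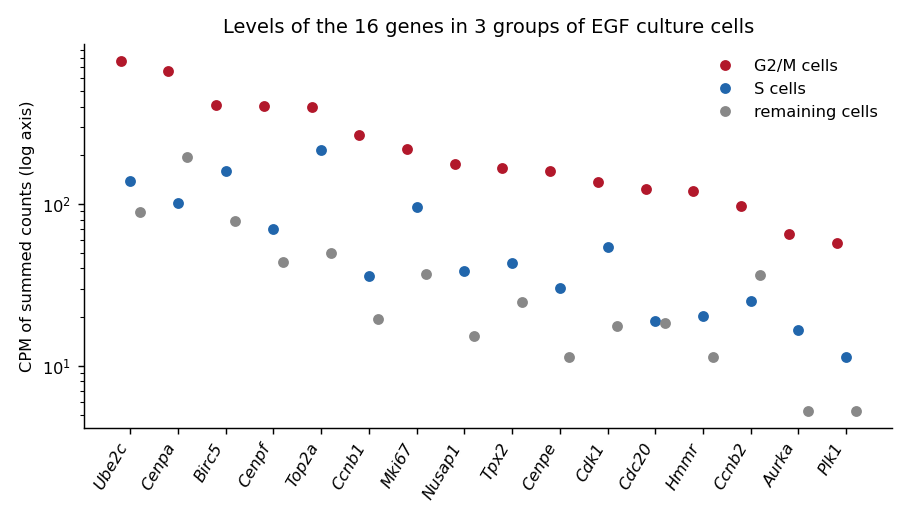
CPM of summed counts (log axis) of each of the 16 genes that chose the cells, in G2/M cells (red), S cells (blue) and remaining cells (grey); 1 library, no error bars. G2/M cells are highest for every gene, and Cenpa and Ccnb2 have grey points above the blue ones.

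After thinning every cell to 4500 counts, a count of Cdk1 was found in 40.9% of G2/M cells and 12.2% of the other EGF cells, against 2.17% of the BMP4 cells below the share limit. Without thinning the Cdk1 shares were 88.9% of G2/M cells and 34.9% of the other EGF cells. Ccnb1 was found in 56.2% of thinned G2/M cells and 9.36% of thinned other EGF cells, with 0.800% in those BMP4 cells, which had a median of 17343 counts before thinning.

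Beyond the 16 genes, 8953 genes had 200 or more counts in the EGF library. That minimum is on G2/M and other EGF cells together, so a gene could reach it mainly through the group where it is high. Kif14, for instance, had 170 counts in G2/M cells and 49 in the other EGF cells. Of these 540 (6.03%) were 1.5-fold or more higher in G2/M cells than in the other EGF cells and 256 (2.86%) were 1.5-fold or more lower, and the median log2 ratio of all was 0.07. Centred on that median, 423 were higher and 343 lower, and with TMM scaling 446 and 326. On counts per cell without scaling for depth 1722 were higher and 80 lower. All these genes come from the cells that were ranked, so the counts are a description. The 6 markers given for the label (Mki67, Top2a, Cdk1, Ccnb1, Cenpf and Ube2c) are all among the 16 genes and cannot check it. The mitotic gene lists described next hold none of the 16, but were measured in the same cells.

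Among genes with 500 or more counts, the 12 largest ratios were led by Prr11 and Aspm. This minimum too is on both groups together, and some genes reached it mainly through the G2/M cells. Cep55 had 368 counts in G2/M cells and 149 in the other EGF cells. Prr11, a late cell cycle gene, had 62.5 CPM in G2/M cells, 7.78 CPM in S cells and 4.90 CPM in remaining cells, a ratio of 10.6 (8.84 to 12.9) over the other EGF cells. Aspm, a spindle pole protein known for its role in brain size, had 70.2 CPM in G2/M cells, 7.65 CPM in S cells and 6.28 CPM in remaining cells, a ratio of 10.4 (8.75 to 12.4). Gas2l3, which links actin and microtubules, followed at 9.39 and Prc1, which bundles the microtubules of the central spindle, at 7.31 (it overlaps Rccd1). Further down were Depdc1a (6.85), the CDK1-activating phosphatase Cdc25b (6.21), the midbody protein Cep55 (6.19), the kinesin Kif20b (6.17), cyclin F, Ccnf (6.01), the importin Kpna2 (5.88) and the central spindle kinesin Kif23 (5.69). All 12 were also higher in G2/M cells than in S cells, from 2.79-fold for Ccnf to 9.17-fold for Aspm.

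Genes of mitotic entry were higher for 15 of 23 tested and lower for 0 (median log2 ratio 1.20). Nek2, a centrosome kinase, had 38.7 CPM in G2/M cells and 4.29 CPM in the other EGF cells, a ratio of 9.02 (7.23 to 11.3). Bora, which helps Aurora A activate Plk1, stood at 6.71 (it overlaps Mzt1) and the phosphatase Cdc25c at 6.30. Cks2 (4.67), cyclin A2, Ccna2 (4.33), and the transcription factor gene Foxm1 (3.52) were also high. The opposing kinases Wee1 (1.33) and Pkmyt1 (0.87) and the phosphatase Cdc25a (1.02) were within 1.5-fold, as were Mybl2 (0.79), which encodes B-MYB, and the MuvB subunits Lin37 (1.25) and Lin52 (1.22). The MuvB subunits Lin54 (1.83, 1.52 to 2.21) and Lin9 (1.55, 1.26 to 1.90) were past 1.5-fold. The intervals of Lin9, Lin37 (1.01 to 1.54) and Lin52 (0.892 to 1.64) overlap. Against the S cells the log2 ratios of Lin54 and Lin9 were 0.06 and −0.18.

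Chromosome and kinetochore genes followed. Of 32 kinetochore and centromere genes 26 were higher and 0 lower (median 1.18), among them the cohesin protector Sgo2a (5.63, 4.85 to 6.55) and the scaffold Knl1 (5.26), and with Cenpk (1.13) at the bottom. All 9 genes of the spindle checkpoint and the chromosomal passenger complex were higher (median 1.89), from Mad1l1 at 2.03 to the checkpoint kinase Bub1b at 5.54 (4.60 to 6.71), with the passenger genes Incenp at 4.12 and Aurkb at 4.02. Of 18 condensin and cohesin genes 10 were higher and 0 lower (median 0.66). The condensin I subunit Ncapg, whose gene overlaps Lcorl, had 31.6 CPM in G2/M cells and 8.20 CPM in the other EGF cells (3.85, 3.21 to 4.63). The shared condensin subunit Smc4 had 238 CPM in G2/M cells and 72.9 CPM in the other EGF cells (3.26, 3.06 to 3.47). The condensin II subunits Ncapg2 (1.45), Ncaph2 (1.45) and Ncapd3 (0.98) were within 1.5-fold, while the condensin I subunits Ncapg, Ncaph (2.77) and Ncapd2 (2.56) were past it.

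Spindle and cytokinesis genes had the highest list medians. Among 27 kinesin and spindle genes 23 were higher and 0 lower (median 1.89), with Aspm, Troap (9.06), Arhgef39 (8.53) and the microtubule depolymerase Kif2c (8.27) first. Haus1 (1.30), Haus4 (1.39), Haus8 (1.21) and the transport kinesin Kif5b (1.35) were within 1.5-fold. All 9 cytokinesis genes were higher (median 2.51), led by the kinesins Kif14 at 8.69 (6.29 to 12.2) and Kif20a at 7.95 (6.27 to 10.2); Kif20a overlaps Brd8 and Cdc23. The lowest was Cit, citron kinase, at 3.32. Of 11 tubulin genes and their partners 4 were higher: Tuba1c (3.94, 2.96 to 5.26, from 129 counts in G2/M cells), Tubb4b (2.56, 2.38 to 2.75, overlapping Fam166a), Tubb6 (1.86) and Tubb5 (1.55). Alpha tubulin genes are near-identical copies, so Tuba1c is uncertain, and Tuba1b (1.09) and Tuba1a (0.78) were within 1.5-fold.

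Of 19 genes of the APC/C and its targets 6 were higher and 0 lower (median 0.37): Fzr1, which encodes the activator CDH1, at 92.4 CPM in G2/M cells and 22.9 CPM in the other EGF cells (4.03, 3.62 to 4.49), separase, Espl1 (2.94, 2.21 to 3.93), the E2 enzyme Ube2s (2.27), the subunits Cdc27 (1.87) and Cdc23 (1.83), and the inhibitor Fbxo5 (1.73). Cdc23 overlaps Kif20a, which was higher too (7.95), so the ratio of Cdc23 is uncertain. Other subunits lay between 0.93 (Anapc13) and 1.39 (Anapc1). Pttg1, which encodes securin, the partner of separase, stood at 0.91.

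Of the genes of the nuclear envelope, which is taken apart in mitosis, 5 of 8 were higher and 0 lower (median 0.91). The lamin B receptor Lbr (2.06), Tmpo (2.03), Vrk1 (2.02), Lmnb1 (1.98) and Lmnb2 (1.78) were higher, and the A-type lamin gene Lmna stood at 0.76. In the Ran and nuclear import list 4 of 8 were higher (median 0.57), Kpna2 first and Rangap1 next (2.67, 2.45 to 2.90). Of 8 histone variant genes 4 were higher (median 0.59), among them H2afx, which marks DNA breaks when phosphorylated, with 497 CPM in G2/M cells and 146 CPM in the other EGF cells (3.40, 3.26 to 3.55), and the linker histone H1f0 (2.14). Of 9 HMG genes 2 were higher (median 0.36), Hmgb2 with 2332 CPM in G2/M cells and 797 CPM in the other EGF cells (2.92, 2.87 to 2.98) and Hmgn5 (1.503).

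**Figure D3:**
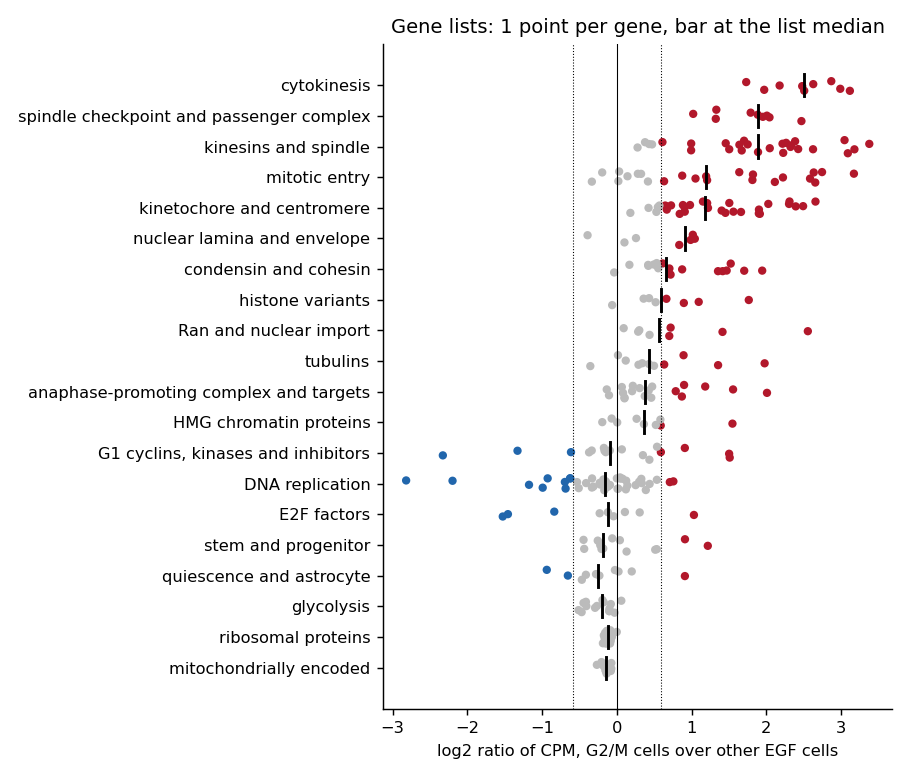
Log2 ratio of CPM, G2/M cells over other EGF cells (horizontal axis), 1 point per gene with 200 or more counts, by gene list. Black bars are list medians, dotted lines mark 1.5-fold, and red and blue points are past it; cytokinesis genes lie highest (median 2.51), and points of the ribosomal and mitochondrially encoded lists stay between the dotted lines.

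Of the 12 lowest ratios, 5 were of genes highest in S cells and 7 of genes highest in remaining cells. Ung, Ccne2 and Ccne1 belong to the S score that chose the S cells, so their height there is fixed by that choice. Ung, a uracil-DNA glycosylase, had 5.32 CPM in G2/M cells, 79.6 CPM in S cells and 16.2 CPM in remaining cells, a ratio of 0.142 (0.105 to 0.188) over the other EGF cells. Cyclin E2, Ccne2, had 8.97 CPM in G2/M cells, 109 CPM in S cells and 12.3 CPM in remaining cells (0.199, 0.158 to 0.248). E2f1, a driver of S phase genes, had 12.1 CPM in G2/M cells, 74.0 CPM in S cells and 14.9 CPM in remaining cells (0.347, 0.283 to 0.422). Cyclin E1, Ccne1 (0.398), and Gpr180 (0.456) were also highest in S cells, and Ung, Ccne2 and E2f1 each overlap a neighbouring coding gene (Alkbh2, Ints8 and Necab3). Among the genes highest in remaining cells, Mxd4, a MYC antagonist, had 39.4 CPM in G2/M cells, 57.1 CPM in S cells and 129 CPM in remaining cells (0.377, 0.338 to 0.421). Pdcd4, an inhibitor of translation that overlaps Bbip1, had 35.1 CPM in G2/M cells, 49.2 CPM in S cells and 95.4 CPM in remaining cells (0.440). Thrsp, a gene of lipid synthesis, stood at 0.482, Gnpda1 at 0.402, Pdlim4 at 0.382, Snapc4 at 0.415 and Ppp1r16b at 0.479.

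Genes of DNA replication were higher for 2 of 47 tested and lower for 9 (median −0.15, or 0.11 on counts per cell without scaling for depth). Rrm1, a ribonucleotide reductase subunit, stood at 1.69 and the clamp loader Rfc5 at 1.64, and both were level with the S cells, at 0.983 and 0.997. The lowest of the list were Ung, the licensing factor Cdc6 at 1.67 CPM in G2/M cells and 7.66 CPM in the other EGF cells (0.218, 0.122 to 0.363) and Cdt1 (0.44). Of the replicative helicase, Mcm5 (0.65, 0.549 to 0.764) was lower. Mcm6 (0.70, 0.613 to 0.802), whose interval overlaps that of Mcm5, Mcm4 (0.75), Mcm2 (0.90), Mcm3 (1.03) and Mcm7 (1.09) were within 1.5-fold. Of 9 E2F genes, E2f1, E2f2 (0.364) and E2f7 (0.56) were lower and E2f5 was higher (2.04, 1.82 to 2.29, overlapping Rbis). Of 17 genes of G1 cyclins, kinases and inhibitors 4 were higher and 3 lower. The CDK4 and CDK6 inhibitors Cdkn2d (2.85, 2.56 to 3.18) and Cdkn2c, which had 262 CPM in G2/M cells and 92.3 CPM in the other EGF cells (2.83, 2.68 to 3.00), were highest with Cdkn1b (1.88), while Ccnd1 (0.89) and Cdk4 (1.05) were within 1.5-fold. Of the other CDK4 and CDK6 inhibitors, Cdkn2b was lower (0.654, 0.544 to 0.781) and Cdkn2a was within 1.5-fold (0.773, 0.737 to 0.811).

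Set against the S cells alone, 401 genes were higher (4.48%) and 384 lower (4.29%), with a median log2 ratio of 0.02. All 9 cytokinesis genes and 22 of 27 kinesin and spindle genes were higher than in S cells. Of the mitotic entry genes 12 were higher and 2 lower than in S cells (median 0.70). The 2 lower were Mybl2 (log2 ratio −1.52) and Pkmyt1 (−1.26). The histone variant list and the Ran and nuclear import list each had 2 higher and 0 lower than in S cells. Of the kinetochore genes 16 were higher and 1 lower than in S cells, of the condensin and cohesin genes 4 and 1, and of the nuclear envelope genes 1 and 0. Tmpo, for instance, had 238 CPM in G2/M cells and 184 CPM in S cells, against 83.1 CPM in remaining cells. The replication list was lower for 38 of 47 and higher for 0 (median −1.06), a difference that the choice of the S cells partly fixes, since part of the list chose them. Against the 730 remaining cells 977 genes were higher (10.9%) and 310 lower (3.46%) in G2/M cells. Of the 47 replication genes 27 were higher and 2 lower in G2/M cells than in remaining cells. The remaining cells were left after the S cells were taken out, so that choice partly fixes this difference too.

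Levels were also followed along the score that chose the cells, which describes that choice in the same cells. EGF cells were put in 4 bands of 352 or 353 cells by their share in the 16 genes, the fourth being the G2/M cells. The summed level of the cytokinesis list was 24.8, 90.3, 275 and 697 CPM from the lowest to the highest band, and that of the checkpoint and passenger list 31.3, 125, 336 and 583 CPM. The replication list was highest in the third band, at 1085, 2387, 3027 and 2113 CPM from lowest to highest. Ung (23.0, 57.7, 31.9 and 5.32 CPM) and Ccne2 (14.2, 59.4, 59.6 and 8.97 CPM) were lowest in the last band, and Mxd4 was lower in each band than in the one before (162, 100.4, 56.2 and 39.4 CPM). The share of counts in the S score genes had medians of 0.0338%, 0.0894%, 0.136% and 0.0733%, and median counts per cell were 21580.5, 22211, 23210 and 26882.5. Of the G2/M cells 24 (6.82%, 4.42 to 9.98) were among the 25% of EGF cells with the highest S score share, against 328 of the other EGF cells (31.0%, 28.2 to 33.9).

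**Figure D4:**
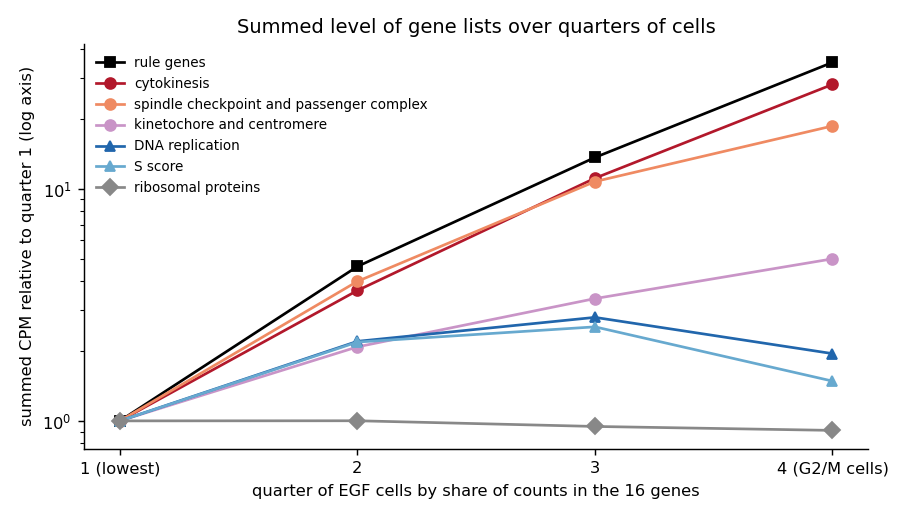
Summed CPM of 7 gene lists in 4 bands of EGF cells ordered by their share of counts in the 16 genes, each divided by its value in the lowest band (log axis). The 16 genes and the mitotic lists are highest in the last band, the G2/M cells, while the replication and S score lists peak in band 3 and ribosomal protein genes stay near 1.

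The lists of genes outside the cycle given here held few genes past 1.5-fold, as did all 8953 genes tested (6.03% higher and 2.86% lower). A small list with 0 past 1.5-fold is near those shares and is not a result about its members. Called genes that are in no list are not covered by them. All 35 ribosomal protein genes tested were within 1.5-fold (median log2 ratio −0.12), as were 13 mitochondrially encoded genes (−0.14), 24 genes of oxidative phosphorylation (−0.18) and 15 of glycolysis (−0.19); on counts per cell without scaling for depth these medians were 0.14, 0.12, 0.08 and 0.07. None of the 18 genes of CPEB proteins and poly(A) tail control passed 1.5-fold (median 0.23), and of 15 cleavage and polyadenylation genes 1 did, Pcf11 (2.01, 1.74 to 2.32). The 13 Notch, 19 cholesterol synthesis, 9 immediate early and 13 heat shock genes held 0 past 1.5-fold. Of 15 EGF and ERK response genes Hbegf was lower (0.618), of 11 ER stress genes Dnajb9 (0.610), and of 14 antiproliferative and p53 target genes Tob2 (1.85) and Sesn2 (1.51) were higher.

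Of 15 stem and progenitor genes 2 were higher. The transcription factor gene Pax6 had 54.2 CPM in G2/M cells, 31.2 CPM in S cells and 19.3 CPM in remaining cells, a ratio of 2.33 (2.06 to 2.63) over the other EGF cells, and overlaps Elp4. Sox2 (1.45), Egfr (1.03), Nes (0.87) and Vim (0.74) were within 1.5-fold. Of 10 quiescence and astrocyte genes the connexin Gja1 was higher (1.88, 1.70 to 2.08) and Apoe (0.522) and Aldoc (0.635) lower; Apoe had 22.1 CPM in G2/M cells, 20.9 CPM in S cells and 53.3 CPM in remaining cells. Marker lists of other brain cell types, apart from neuroblasts, summed to 46.0 CPM or less in both groups. The 8 microglial genes summed to 1.67 CPM in G2/M cells and 1.37 CPM in the other EGF cells, with 6 of 8 at 0. In the same order of cells, the 8 endothelial and pericyte genes summed to 1.25 CPM and 2.00 CPM with 3 of 8 at 0, the 5 ependymal genes to 18.4 CPM and 26.6 CPM, and the 7 genes of mature neurons to 16.9 CPM and 20.3 CPM. The 9 oligodendrocyte genes summed to 41.1 CPM in G2/M cells and 46.0 CPM in the other EGF cells, and the 11 neuroblast genes, of which Cd24a alone had 200 or more counts, to 275 CPM and 344 CPM.

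The G2/M cells were not uniform. Between the 176 cells with the higher and the 176 with the lower shares, 61 of 5317 genes tested (1.15%) were 1.5-fold or more higher and 14 (0.263%) lower. Of genes outside the 16, Kpna2 had 114 CPM in the higher-share cells and 42.6 CPM in the lower-share cells (2.67, 2.26 to 3.17). Cdc25b stood at 62.7 CPM in the higher-share and 28.3 CPM in the lower-share cells (2.21, 1.79 to 2.75), and Prc1 at 274 CPM and 137 CPM (2.00, 1.82 to 2.21). The replication-dependent histone gene Hist1h2ap was lower in the higher-share cells, at a ratio of 0.324. Median counts per cell were 30853 in the higher-share and 22903 in the lower-share cells, and the part of that difference in the ratios was not tested. Hmgb2 (1.13), Cdkn2c (1.21) and Prr11 (1.32) differed less. Among the 16 genes Ccnb1 (2.46), Nusap1 (2.18) and Ube2c (2.01) differed most and Mki67 (1.20) and Cenpa (1.24) least, which the split itself affects.

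Rank correlations between the 16 genes were taken over the 352 G2/M cells. Of 120 pairs the median Spearman rho of their shares of counts was 0.187, and 15 pairs were below 0. The highest was that of Ube2c and Nusap1 (0.479), followed by Cdk1 and Ube2c (0.444). The lowest was that of Top2a and Cenpa (−0.344), then Mki67 and Cenpa (−0.238) and Top2a and Cdc20 (−0.219). These values share the library and the total of each cell and are given as a description. The cells were also kept for a high sum of these same 16 genes, which by itself can lower rho between them. They therefore cannot tell whether the 16 genes vary together in cells at large. Top2a had quartiles of 1.78, 4.02 and 5.42 counts per 10000 counts of a G2/M cell, and Cenpa of 4.91, 6.85 and 8.80.

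This contrast was followed by ranking the G2/M cells on the counts of Top2a out of Top2a plus Cenpa, an axis chosen after the values were seen. Between the 176 Top2a-rich and the 176 Cenpa-rich cells 70 of 5311 genes (1.32%) were 1.5-fold or more higher and 27 (0.508%) lower. Hist1h2ap had 227 CPM in Top2a-rich cells and 30.9 CPM in Cenpa-rich cells, a ratio of 7.35 (6.16 to 8.84), and stood at 452 CPM in S cells. Fbxo5, which holds the APC/C back until mitosis, had 51.5 CPM in Top2a-rich cells and 21.4 CPM in Cenpa-rich cells (2.40, 1.90 to 3.07). The DNA repair factor Rad51ap1 (2.19), DNA ligase 1, Lig1 (2.03), the maintenance methyltransferase Dnmt1 (2.00), Aurkb (1.96), Mcm6 (1.92) and the cohesin acetyltransferase Esco2 (1.91) were also higher, and 10 of 33 replication genes tested were higher and 0 lower.

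Other genes were lower in the Top2a-rich cells. Cdkn3, a phosphatase that acts on CDKs, had 37.9 CPM in Top2a-rich cells and 69.9 CPM in Cenpa-rich cells (0.542, 0.451 to 0.650). Cdc20 had 90.3 CPM in Top2a-rich cells and 161 CPM in Cenpa-rich cells (0.560), and Ccnb2 76.3 CPM and 121 CPM (0.632). The kinetochore protein gene Knstrn (0.636), Arl6ip1 (0.627) and Tubb4b (0.640) lay in the same range, as did the Notch target Hes5 (0.582), and the histone gene Hist1h2bc stood at 0.394. Of the 14 genes of the choice that did not make this ranking, Cdc20 and Ccnb2 were lower and the other 12 within 1.5-fold. Ube2c stood at 1.00 (0.959 to 1.05) and Cenpf at 0.963 (0.904 to 1.03). Cdc20 and Ccnb2 had rho of 0.416 and 0.303 with Cenpa in the same cells, so their lower ratios partly restate those pairs. Top2a-rich cells had a median of 29568.5 counts and an S score share of 0.0854%, and Cenpa-rich cells 22624 counts and 0.0643%, and the part of depth in these ratios was not tested.

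**Figure D5:**
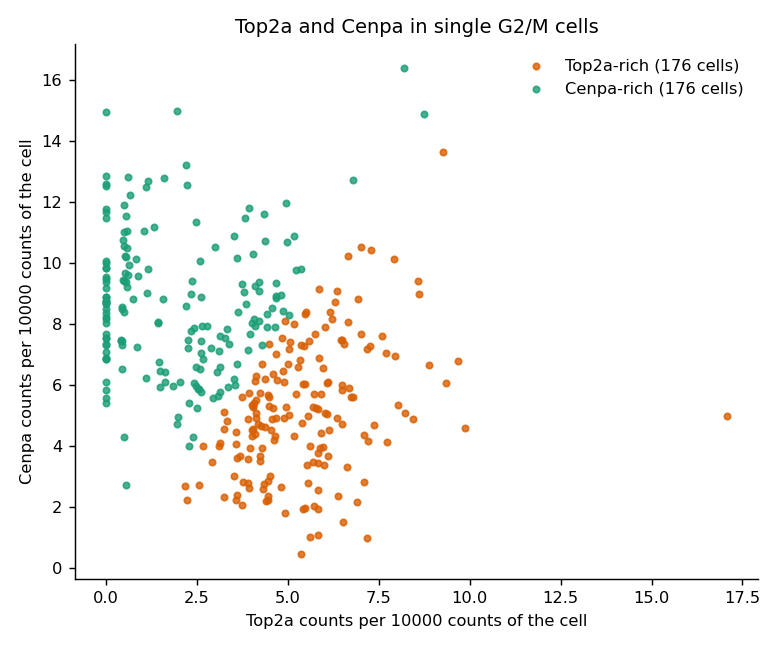
Cenpa against Top2a counts per 10000 counts of the cell, 1 point per G2/M cell, coloured by the ranking on Top2a out of Top2a plus Cenpa. Cells with no Top2a count line up at 0 and nearly all have 5 or more Cenpa counts per 10000.

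The same share limit was then applied to libraries that had no part in choosing the cells. In the BMP4 culture 12 of 887 cells (1.35%, 0.701 to 2.35) reached it, with 254161 counts in all and a median of 24830 counts per cell, against 17343 in the other BMP4 cells. All 12 genes with the largest ratios in EGF G2/M cells also had ratios above 1.5 in these 12 cells. Of these genes only Cdc25b, with 29 counts in high-share and 171 in other BMP4 cells, reached the minimum count for a call. The rest were below it and were not tested there, down to Cep55 with 13 counts in high-share and 5 in other BMP4 cells. Prc1 had 299 CPM in the high-share BMP4 cells and 5.39 CPM in the other BMP4 cells (55.4, 40.4 to 76.0), and Aspm 173 CPM in the high-share and 2.23 CPM in the other BMP4 cells (77.7, 49.2 to 123). Cdc25b was the lowest of the 12, with 114 CPM in the high-share and 10.0 CPM in the other BMP4 cells (11.4, 7.40 to 16.9). The cytokinesis list summed to 1062 CPM in the high-share BMP4 cells, 32.2 CPM in the other BMP4 cells, 697 CPM in EGF G2/M cells and 134 CPM in the other EGF cells. In the same order, the checkpoint and passenger list summed to 657, 23.7, 583 and 169 CPM and the replication list to 2113, 548, 2113 and 2196 CPM. The other BMP4 cells had the lowest sum of the 4 groups in each of these lists; with 1 library per culture this was not tested.

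Of the 232 genes higher in EGF G2/M cells and tested in the BMP4 library, 164 were 1.5-fold or more higher in its high-share cells, which is 70.7% of the EGF list and 12.2% of the BMP4 list. In that library 1387 of 7542 genes (18.4%) were higher and 1880 (24.9%) lower. The high-share side of that background is 12 cells, and the part of counting error in it was not tested. With the 25% of BMP4 cells of highest share (222 cells) in place of the 12, 40 of the 232 genes (17.2%) were higher. In that setting 109 of all 7542 genes tested (1.45%) were higher, and the lowest share among the 222 cells was 0.00575%. Among the 12 lowest genes of the EGF contrast, Pdcd4 was lower in the 12 high-share BMP4 cells too. It had 35.4 CPM in high-share cells and 112 CPM in the other BMP4 cells (0.316, 0.144 to 0.601). Thrsp (0.368, 4 counts in high-share cells), Gnpda1 (0.515, 3 counts) and Ppp1r16b (0.257, 1 count) were lower as well. The intervals of Gnpda1 and Ppp1r16b reached above 1. Mxd4 (0.672) and Gpr180 (1.39) were within 1.5-fold. The rest were below the minimum count and were not tested. E2f1, among these, had 23.6 CPM in high-share cells (6 counts) and 4.92 CPM in the other BMP4 cells (84 counts, ratio 4.79, 1.71 to 10.9). The quiescence and astrocyte genes summed to 5414 CPM in high-share cells and 7254 CPM in the other BMP4 cells (0.75, 0.71 to 0.79), against 1073 CPM in EGF G2/M cells.

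In freshly isolated cells 250 of 1879 APLP1-/- cells (13.3%, 11.8 to 14.9) and 135 of 2209 wildtype cells (6.11%, 5.15 to 7.19) reached the limit, with medians of 988.5 counts per high-share cell against 391 in the rest of the APLP1-/- library, and 972 against 351 in the wildtype library. At that depth a few counts pass the limit, so these shares cannot be set beside that of the EGF culture, and with 1 library each the genotypes were not tested. Of EGF genes tested in both, 32 of 51 were higher in high-share APLP1-/- cells (62.7%; background 18.5%) and 28 of 41 in high-share wildtype cells (68.3%; background 21.1%). Prc1 was below the minimum count in both fresh libraries and was not tested there. Its ratio was 6.37 in high-share APLP1-/- cells (52 counts, against 23 in the rest) and 9.15 in high-share wildtype cells (40 counts, against 28 in the rest). The quiescence and astrocyte list moved with the share, at 2506 CPM in high-share cells and 24697 CPM in the rest of the APLP1-/- library and 3266 and 31903 CPM in the wildtype library (0.10 in each). The part of that difference in the fresh ratios was not tested.

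The promoter element was then counted over all windows. A CHR was found in 11 of the 15 windows of the 16 genes (73.3%) and in 11 of 11 windows of the 12 largest ratios, against 0 of 10 windows of the 12 lowest. Windows of Ccnb1, Cenpe, Birc5 and Nusap1 held none of these letters. Of genes higher in G2/M cells 141 of 435 windows (32.4%) held a CHR, of genes lower 19 of 201 (9.45%), of tested genes within 1.5-fold 800 of 6564 (12.2%) and of all 27025 windows 19.4%. Limited to 100 bases before to 50 after the start, the shares were 23.4% for genes higher, 1.99% for genes lower, 4.05% for genes within 1.5-fold and 8.68% for all. A CCAAT box (CCAAT on either strand) was in 13 of the 15 windows (86.7%), in 53.8% of windows of genes higher, 37.8% of genes lower and 37.9% of all.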

How the data were processed

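The values used are whole-number counts per gene and cell that the authors deposited for 4 single-cell libraries (10x Genomics oligo(dT) capture, per the labels' protocols). Bowtie2, SAMtools, Cell Ranger and the mm10 build are named in the submitters' processing notes, without versions or roles; the annotation, strand setting, cell filters and whether counts are of molecules were not given in the sources used here. Ensembl identifiers were named from a gene table (98.7% of 27998).

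The cells and the 41 gene lists were chosen with earlier results of these data known. Counts were summed over cells and scaled to CPM. A gene with 200 or more counts in the EGF library (over both groups in other contrasts) was called at a ratio of 1.5 or more either way, and ratios carry exact conditional binomial 95% intervals, which cover counting error only. Shares of cells carry Clopper-Pearson intervals. In other libraries high-share cells also had 2 or more counts in the 16 genes. Named genes were the 16, then, of genes with at least 500 counts, the 12 that differed most each way (passing over predicted genes and ribosomal protein genes), and the 2 largest changes each way in lists with a call; other list members are named to show the range of a list and were chosen after their values were seen, as were the genes of the contrasts within G2/M cells and the printed promoters. A few genes that meet these rules are counted but not reported by name. Scrublet called 1 of 1410 cells a doublet, and neither doublets nor free RNA were removed. Python 3.11.15, scanpy 1.11.5 and edgeR 4.0.16 (for TMM factors) were used, and the ratio code was tested on simulated data. Hash tag and RIP libraries were not used here.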

Additional observations from a re-analysis of the deposited data

How the results depend on the processing

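Of 540 genes higher and 256 lower in G2/M cells, the counts were 740 and 691 with a minimum of 50 counts per gene, 160 and 47 with a minimum of 1000, 181 and 41 at a 2-fold limit, 215 and 59 after thinning cells to 4500 counts (3838 genes tested), 892 and 388 against the 50% of cells with the lowest shares, and 1722 and 80 on counts per cell without scaling, which moved the median log2 ratio of all genes to 0.33. Centring on the median gave 423 and 343, TMM 446 and 326. The other settings stayed within 1.5 times of both counts: 10% or 40% of cells as members (561 and 348, 561 and 220), the mean share per cell, leaving out the 5% of cells with most counts, called doublets or the 16 genes from the total, and the S cells as the comparison. So did 2 settings chosen after seeing the data: cells between the quartiles of counts per cell (438 and 223, from 122 G2/M and 582 other cells) and leaving out 2 cells above 15% mitochondrial counts (536 and 255). Ranking after thinning shared 315 of 352 cells (89.5%). Of 1325 values of 78 named genes over these settings, 954 stayed within the interval, 368 moved and 3 changed sign, all against the S cells: log2 ratios of Rrm1 (−0.024), Rfc5 (−0.0039) and Apoe (0.084); that setting compares other cells. With the 25% of BMP4 cells of highest share (222 cells) in place of 12, 109 genes were higher there and not 1387, and 40 of the 232 EGF genes were among them. No paired analysis was possible because each condition is 1 library, and for the same reason no replicate could be left out.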
